A study of Mus musculus with 16 samples.

Results

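The genes described here are named as subunits of mitochondrial complexes I to IV and of ATP synthase, also called complex V. They were chosen by symbol, as the Nduf, Sdh, Uqcr, Cox and Atp5 families of the nucleus and the mt-Nd, mt-Co, mt-Atp and mt-Cytb genes of mitochondrial DNA, with pseudogenes marked -ps left out. Each is counted in the complex that its symbol names. Ndufa4 thus stays in complex I, Cox7a2l in complex IV and Atp5s, which RefSeq names Dmac2l, in ATP synthase. Of 96 such symbols among the 49139 rows with a symbol, 91 reached at least 10 counts in 3 libraries of the day 7 table or of the day 15 and control table. Of these, 78 are nuclear (37 of complex I, 4 of complex II, 8 of complex III, 13 of complex IV and 16 of ATP synthase). The other 13 are the protein-coding genes of mitochondrial DNA, of which 7 belong to complex I, 1 to complex III, 3 to complex IV and 2 to ATP synthase. The muscle and testis forms of cytochrome oxidase subunits and the lung form Cox4i2 made up those left out: Cox4i2, Cox6a2, Cox6b2, Cox8b and Cox8c had at most 0.787 normalised CPM, counts scaled to library size, in any library. Cox7b2 and mt-Atp8 reached the limit on day 7 only, and Ndufa4l2 in the day 15 and control table only.

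Complexes I to IV pass electrons from NADH and succinate to oxygen in the inner mitochondrial membrane, and complexes I, III and IV pump protons as they do so. ATP synthase lets the protons back through a rotating ring of c subunits and makes ATP. All complexes except complex II hold subunits of both genomes, so their assembly needs nuclear and mitochondrial RNA, and tumour cells that divide draw on the chain both for ATP and to reoxidise NADH.

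RNA was sequenced from sorted cells of 4T07 tumours. 4T07 is a mammary carcinoma line of the mouse, and the hosts were female Balb/cJ x C57BL/6J hybrids, implanted in the mammary fat pad. Mixed tumours started from 250000 cells, equal parts transduced with GFP and with mCherry. PD1KO Jedi T cells, whose receptor recognises GFP, were given through the tail vein when tumours were 7 or 15 days old, and cells were collected 7 days after that. Each of the 3 day 7 and 3 day 15 tumours gave 1 library of surviving GFP cells and 1 of the mCherry cells beside them. The 4 control libraries came from mCherry tumours with neither GFP cells nor Jedi T cells. The age of the control tumours, their collection day and their number of injected cells are not given here. A difference in age and one in attack thus cannot be told apart against them. No library holds GFP cells that were spared attack, so reporter and attack cannot be told apart between GFP and mCherry cells. Tumours are called by the numbers of their count columns (2, 3 and 4 for day 7; 1, 2 and 3 for day 15).

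Libraries of day 7 made up sequencing run 1 and held 9412040 to 19970822 counts, while run 2, with all others, held 21183324 to 32808354. Nuclear subunit genes took 1.46% to 1.84% of counts on day 7 but 0.523% to 0.684% in run 2, while the mitochondrial genes took 1.47% to 1.99% and 1.12% to 1.54%. Day and run coincide, so groups are compared within a run. The gap between runs differed among genes: in genes of at least 1 CPM in day 15 mCherry cells, the ratio of day 7 to day 15 mCherry CPM had a median of 3.75 in nuclear subunit genes with annotated transcripts under 600 nt, 3.58 from 600 to 1000 nt and 2.74 above that. The 7 mitochondrial genes of that level had a median of 1.4, and the other 6 are described below as uncertain. The mCherry library of day 7 tumour 4 stood apart from the other 2 (chi-square per degree of freedom 88.1 and 92.1, against 10.5 between those 2), as did, by less, the GFP library of that tumour (26.1 and 26.8 against 5.34). Pairs within the other groups gave 15.4 to 51.8. Cells were sorted after staining for CD45 and DAPI, and these are bulk RNAs, so fewer cells of a type and less RNA per cell cannot be told apart.

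Markers of other cells differed between the colours. On day 7 all 14 macrophage and monocyte markers and all 8 endothelial markers tested were lower in GFP libraries, with summed levels of 110 to 191 against 678 to 970 CPM and of 5.25 to 6.24 against 29.4 to 59.6 CPM. On day 15 these were 7 of 11 and 4 of 10, at 55.9 to 72.7 against 88.5 to 111 CPM and 8.83 to 12.6 against 10.3 to 34.1 CPM. Control libraries held 78.9 to 207 CPM of the macrophage and 14.4 to 84.2 CPM of the endothelial markers. All 10 markers of dividing cells were lower in GFP cells on both days, at 594 to 1260 against 1310 to 1560 CPM on day 7 and 521 to 791 against 1100 to 1830 CPM on day 15, with 955 to 1060 CPM in the controls. Of the carcinoma markers, Krt8 and Krt18 were lower and Cdh1 was higher in GFP cells on both days, and the sum of all 7 was 469 to 668 against 997 to 1400 CPM on day 7 and 454 to 541 against 615 to 921 CPM on day 15. Krt14 was at 0 in every day 7 library and Krt5 in the GFP libraries of that day. T and NK cell markers summed to 1.89 to 6.32 CPM on day 7 and at most 1.54 CPM in run 2, where Cd3d, Cd4, Gzmb, Gzma and Klrb1c were at 0 in the day 15 mCherry cells and Gzma, Prf1 and Klrb1c in the GFP cells. B and plasma cell, adipocyte, muscle, erythroid and neutrophil markers stayed at or below 46.5 CPM in every library, with at most 2 called in any of those lists in a within-tumour comparison. Fibroblast and pericyte markers summed to 782 to 841 against 712 to 874 CPM on day 7, with 1 of 6 lower, and to 1370 to 1570 against 921 to 1090 CPM on day 15, with 1 of 8 higher and 2 lower.

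In tumours injected on day 7, surviving GFP cells held less RNA of 23 of the 90 subunit genes tested than the mCherry cells of the same tumours (25.6%), and more of none. Of all 14578 genes tested, 18.2% were called, 9.33% lower and 8.89% higher. Calls are edgeR quasi-likelihood tests with tumour as a block at a Benjamini-Hochberg adjusted p under 0.05, and log2 fold changes are GFP over mCherry. The differences were small: the median over nuclear subunit genes was −0.24 and over mitochondrial ones −0.29, beside 0 over all genes. All 23 called genes were nuclear, and 81 of the 90 values were negative. The GFP libraries lay wholly below the mCherry libraries for 45 of the 90 and wholly above for none, where 17.3% and 17% of all genes did so. Tumour 4 differed least, with a median of −0.12 over all subunit genes, against −0.28 in tumour 2 and −0.30 in tumour 3. The calls varied with the tumours kept: 6 subunit genes were lower without tumour 2, 1 (Ndufa4) without tumour 3 and 52 without tumour 4. Calls over all genes moved too: 949, 634 and 2318 were lower in these fits, against 1360 with every tumour.

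The summed CPM of the nuclear subunit genes was 14900, 14660 and 14630 in the GFP libraries of tumours 2, 3 and 4 and 18220, 18130 and 15750 in their mCherry counterparts. The GFP libraries lay together and below all 3 mCherry libraries. The mitochondrial sum was 16110, 17950 and 16280 against 18720, 20090 and 14960 CPM, so the colours overlapped and in tumour 4 the GFP library was the higher one.

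**Figure D1:**
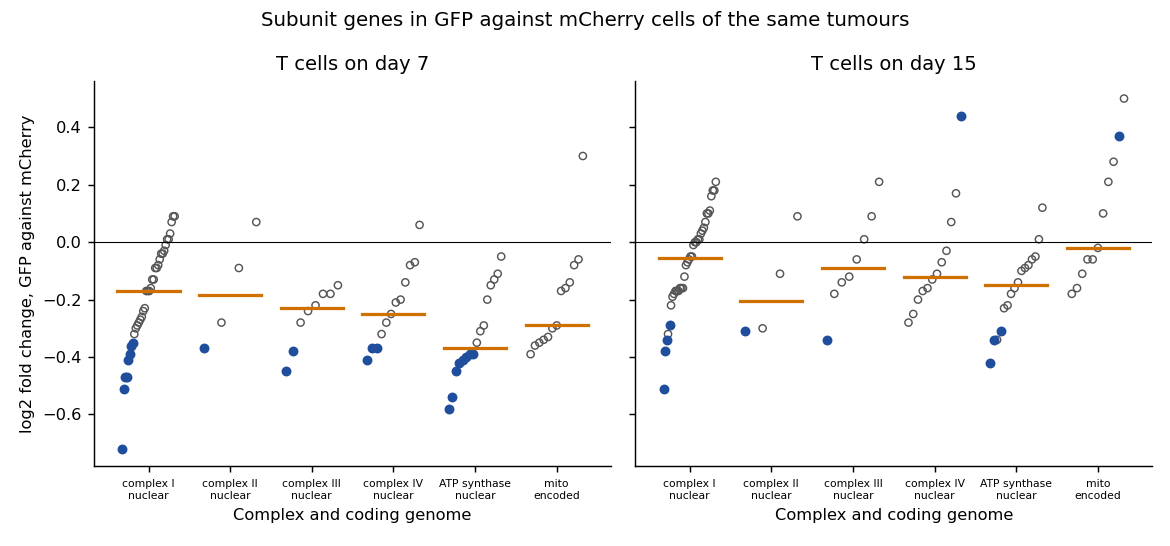
Fitted log2 fold change of GFP against mCherry cells for each subunit gene (vertical axis), by complex and coding genome, for T cells given on day 7 (left) and day 15 (right). Filled points passed an adjusted p of 0.05, open points did not, and orange lines are medians of all genes tested in the complex; Cox7b2 on day 7, at −2.28, lies off the scale. ATP synthase has the lowest median on day 7 (−0.37), and the day 15 medians lie nearer to 0 in all but complex II (−0.20, against −0.18 on day 7).

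ATP synthase had the largest share of calls on day 7. Of its nuclear genes, 8 of 16 fell, all 16 values were negative, and the median was −0.37 (−0.38, −0.37 and −0.30 in tumours 2, 3 and 4). Summed, these genes stood at 4475, 4528 and 4739 CPM in GFP cells and 5797, 5819 and 5203 CPM in mCherry cells, with no overlap. Atp5g3, on chromosome 2 at 73908447 to 73911326 of GRCm38 (minus strand), is 1 of 3 genes whose products are cut to the same mature c subunit of the rotor ring. It stood at 240, 255 and 268 CPM in the GFP libraries and 360, 393 and 385 CPM in the mCherry libraries. Every GFP library was thus below every mCherry library, and the log2 fold change was −0.58 (SE 0.0965, adjusted p = 0.00323 by edgeR). Its sister Atp5g2 also fell, by 0.39 on the log2 scale (adjusted p = 0.02 by edgeR), whereas Atp5g1 at −0.20 did not pass.

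Atp5c1, which encodes the gamma subunit of the central stalk (chromosome 2, 10056016 to 10080510, minus strand), stood at 435, 443 and 451 CPM in GFP cells and 668, 694 and 575 CPM in mCherry cells. Its groups did not overlap, and it fell by 0.54 (SE 0.105, adjusted p = 0.00656 by edgeR). The other ATP synthase genes that fell encode the f subunit (Atp5j2, −0.45), the d subunit of the side stalk (Atp5h, −0.41), the epsilon subunit of the central stalk (Atp5e, −0.40), the g subunit (Atp5l, −0.39) and the protein at the top of the side stalk, OSCP (Atp5o, −0.42). Of the catalytic head, Atp5b, the beta subunit, had −0.05 at 1030, 1060 and 1190 against 1190, 1170 and 1040 CPM, with the groups overlapping. Atp5a1, the alpha subunit, had −0.31 and missed the threshold (adjusted p = 0.0541 by edgeR), although its GFP libraries, at 617 to 659 CPM, all lay below the mCherry libraries at 783 to 791 CPM.

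Complex I, the NADH dehydrogenase, had 8 of 36 nuclear genes lower and a median of −0.17. Ndufa4 (chromosome 6, 11900292 to 11907497, minus strand) fell most. Its product was first assigned to complex I, as the symbol records, and is now placed in cytochrome oxidase. Ndufa4 was at 145, 140 and 140 CPM in GFP cells and 278, 218 and 209 CPM in mCherry cells, a log2 fold change of −0.72 (SE 0.108, adjusted p = 0.00178 by edgeR). It was lower in each tumour and under all 9 alternatives tried (adjusted p up to 0.0132). Ndufb11, an accessory subunit of the membrane arm, stood at 110, 100 and 97.2 against 152, 142 and 145 CPM and fell by 0.51 (adjusted p = 0.00537 by edgeR). Ndufa8, an accessory subunit with paired cysteine motifs (chromosome 2, 36036326 to 36049406, minus strand), stood at 129, 128 and 112 against 174, 189 and 149 CPM and fell by 0.47 (adjusted p = 0.0092 by edgeR). In both genes the lowest mCherry library was above the highest GFP library. Ndufa2, Ndufb3, Ndufb4, Ndufc2 and Ndufs3 fell by 0.35 to 0.47. Ndufs3 is a core subunit of the arm that takes electrons to ubiquinone. The core subunits Ndufs1, with −0.30 (adjusted p = 0.0784 by edgeR), and Ndufv1, with −0.13, did not pass.

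In complex II, succinate dehydrogenase, 1 of 4 genes fell, with a median of −0.18. This was Sdhd, a membrane anchor (chromosome 9, 50596357 to 50603812, minus strand), at 243, 238 and 252 CPM in GFP cells and 340, 338 and 276 CPM in mCherry cells (log2 fold change −0.37, adjusted p = 0.0422 by edgeR). Its groups did not overlap, but the gap was narrow in tumour 4. The iron-sulfur subunit Sdhb had −0.28 and the flavoprotein Sdha 0.07, and neither passed.

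Complex III, the cytochrome bc1 complex, had 2 of 8 nuclear genes lower, all 8 values negative and a median of −0.23. Uqcrh, the hinge protein that helps cytochrome c1 meet cytochrome c (chromosome 4, 116066965 to 116075071, minus strand), stood at 141, 144 and 149 against 212, 208 and 173 CPM. It fell by 0.45 (SE 0.108, adjusted p = 0.0181 by edgeR), with no overlap of the groups. Uqcr10, a small subunit, fell by 0.38. Uqcrc1, a core protein, and Uqcrfs1, the Rieske iron-sulfur protein, had −0.28 and −0.15 and did not pass.

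Complex IV, cytochrome c oxidase, had 4 of 13 nuclear genes lower and a median of −0.25. Cox6c stood at 316, 295 and 309 CPM in GFP cells and 453, 391 and 380 CPM in mCherry cells and fell by 0.41 (adjusted p = 0.019 by edgeR). Cox7a2, the common form of subunit 7a, stood at 263, 236 and 249 against 332, 328 and 305 CPM and fell by 0.37, as did Cox5b at 214, 215 and 208 against 289, 288 and 246 CPM. None of these 3 genes had overlapping groups. The fourth, Cox7b2, stood at 0.0751 to 0.467 against 0.865 to 1.85 CPM, near the limit of detection, and its call was lost with DESeq2. Cox5a, near the heart of the enzyme, had −0.07 and Cox4i1, the general form of subunit 4, −0.08, and neither passed.

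**Figure D2:**
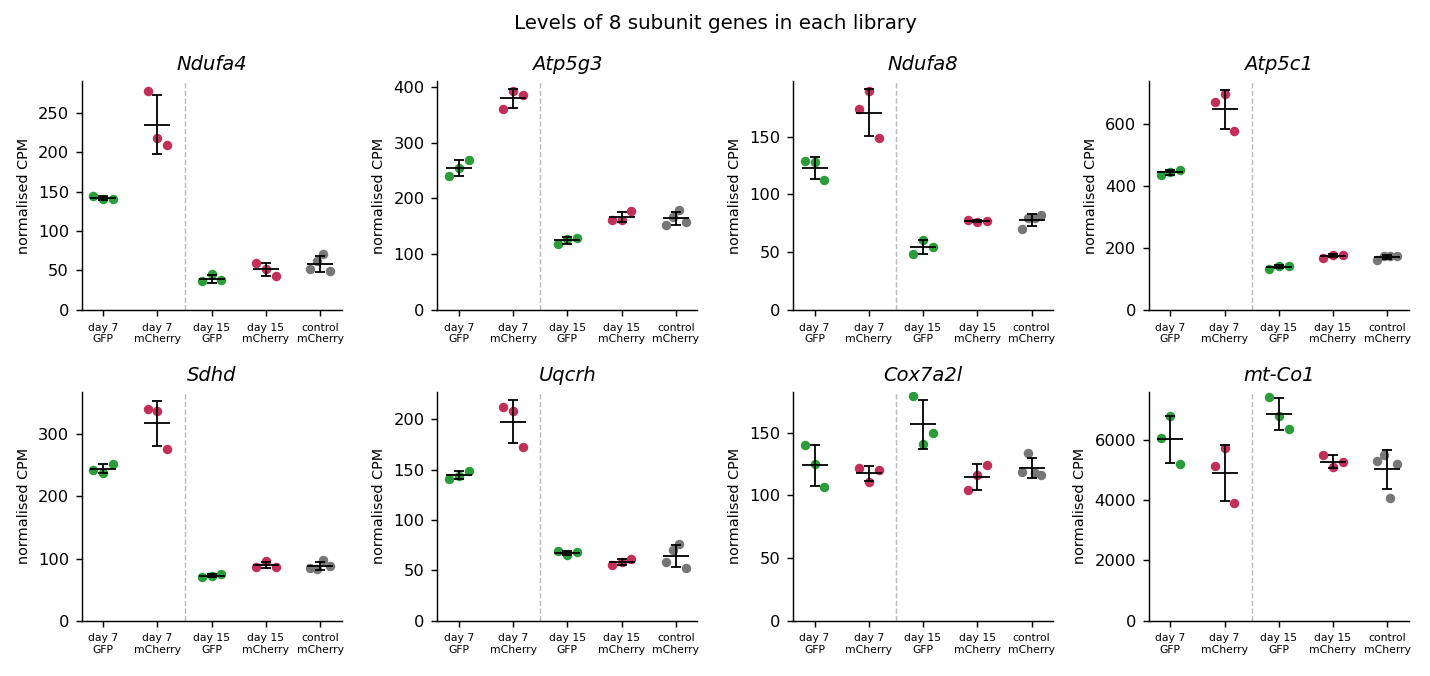
CPM of 8 subunit genes in each library (points; vertical axis from 0), for GFP cells (green), mCherry cells (red) and control mCherry cells (grey), with mean and SD; the dashed line parts the sequencing runs. Atp5g3, Ndufa8, Atp5c1 and Sdhd are lower in GFP cells on both days, while Uqcrh has its GFP libraries below mCherry on day 7 (141 to 149 against 173 to 212 CPM) and above on day 15 (65.2 to 68.9 against 55.1 to 61.1 CPM).

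Transcript length moved with the day 7 result. Nuclear subunit genes are short, with annotated transcripts of 371 to 4715 nt and a median of 863 nt. Other protein-coding genes under 600 nt had a median of −0.22 on day 7 with 23.1% of 130 called lower, and the 19 nuclear subunit genes of that length had −0.24 with 31.6%. From 600 to 1000 nt the 546 other genes had −0.19 with 20.1% lower, and the 26 nuclear subunit genes −0.36 with 53.8%. From 1000 to 2000 nt the values were −0.09 with 14.4% of 2478 and −0.15 with 12% of 25. With the mitochondrial genes, none of which was called, the shares in these classes were 26.1%, 46.7% and 10.0%. The other genes of 4000 nt or more had a median of 0.08. The share of subunit genes called lower was thus farthest above that of other genes of like length from 600 to 1000 nt. On day 15 the short classes of other genes had medians of 0.04 and −0.02. The part of transcript length, of host cells and of the share of dividing cells in the day 7 falls was not tested.

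**Figure D3:**
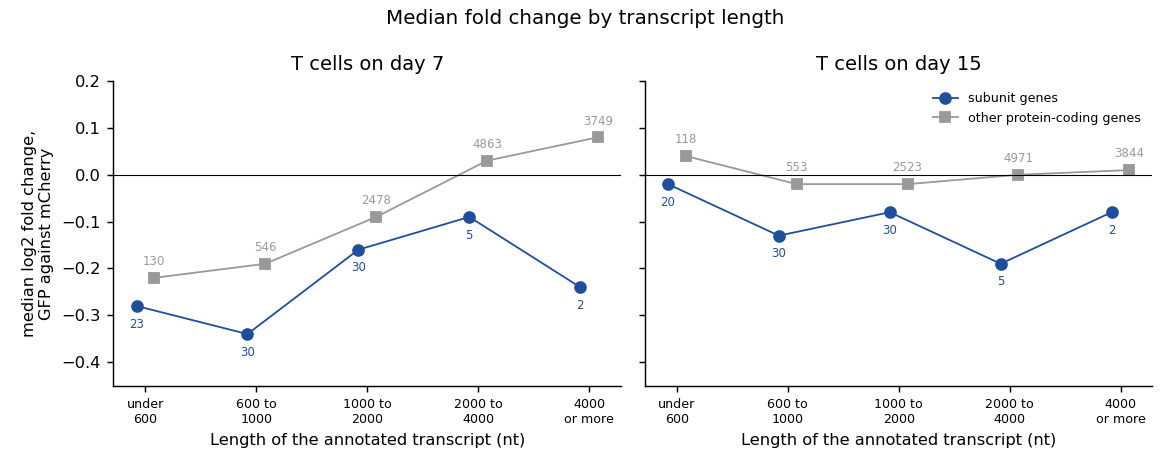
Median log2 fold change of GFP against mCherry cells (vertical axis) by length of the annotated transcript (horizontal axis, nt), for nuclear and mitochondrial subunit genes together (blue circles) and all other protein-coding genes tested (grey squares), with the number of genes at each point. On day 7 the other genes climb from −0.22 under 600 nt to 0.08 at 4000 nt or more, and the subunit genes lie below them in each class; on day 15 the other genes lie within 0.04 of 0.

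In tumours injected on day 15 the share of subunit genes called lower lay near the background, and the share called higher below it. Of 87 tested, 9 fell (10.3%) and 2 rose (2.3%). Of all 14260 genes, 19.5% were called, 10.6% lower and 8.94% higher. The median was −0.10 over nuclear and −0.02 over mitochondrial genes, beside 0.01 over all genes, and −0.14, −0.07 and −0.03 over all subunit genes in tumours 1, 2 and 3. Of the subunit genes, 66.7% had negative values, against 49.1% of all genes. GFP libraries lay wholly below mCherry libraries for 27 genes (31%) and wholly above for 8 (9.2%), where 18.4% and 18% of all genes did so. The summed CPM of the nuclear genes was 5404, 5637 and 5719 in GFP cells and 5853, 6070 and 6063 in mCherry cells, apart but close, and 5961, 6310, 6809 and 5994 in controls. Complexes I to IV and ATP synthase had nuclear medians of −0.06, −0.20, −0.09, −0.12 and −0.15. Without tumour 2, 4 genes were called lower and 1 higher, and without tumour 3, 3 and 1. Over all genes, 1355 and 972 were lower and 1165 and 764 higher in these fits. With every tumour 1507 were lower and 1275 higher. Markers of macrophages, endothelium and dividing cells were lower in the same GFP libraries, as given above, and their part in these results was not tested.

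The 9 that fell were spread over 4 complexes. Ndufa8 stood at 48.5, 60.4 and 54.6 CPM in GFP cells and 78, 75.9 and 77.2 CPM in mCherry cells. The mCherry values lay close together and well above the GFP values, and the log2 fold change was −0.51 (SE 0.0939, adjusted p = 0.00467 by edgeR). Atp5g3 stood at 118, 128 and 129 against 161, 161 and 177 CPM and fell by 0.42 (SE 0.0779, adjusted p = 0.00499 by edgeR). Both calls held under all 10 alternatives tried. Atp5c1 stood at 133, 141 and 142 against 168, 178 and 178 CPM and fell by 0.34 (adjusted p = 0.0113 by edgeR), again with no overlap. Atp5a1 fell by 0.31 at 449, 499 and 508 against 551, 571 and 673 CPM (adjusted p = 0.0327 by edgeR), while its partner Atp5b had −0.09 and did not pass.

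In complex III, Uqcrc1 stood at 92.3, 104 and 108 against 125, 135 and 124 CPM and fell by 0.34 (adjusted p = 0.0168 by edgeR). In complex II, Sdhd fell by 0.31 at 71, 71.1 and 75.5 against 86.1, 95.8 and 87.1 CPM (adjusted p = 0.0274 by edgeR). Neither had overlapping groups. In complex I, Ndufs3 fell by 0.34 (adjusted p = 0.0273 by edgeR) and Ndufs1 by 0.29 at 78.1, 80 and 76 against 95.1, 96.1 and 93.3 CPM (adjusted p = 0.0289 by edgeR). Ndufs1 carries iron-sulfur clusters of the electron path. Ndufa4 fell by 0.38 (adjusted p = 0.0434 by edgeR), but its GFP libraries, at 36, 45.1 and 37.6 CPM, overlapped the mCherry libraries at 59, 51.9 and 43 CPM, and 6 of 10 alternatives lost the call. Sdhb at −0.30, Ndufv1 at −0.12, Cox5a at −0.17, Sdha at 0.09 and Uqcrfs1 at 0.09 did not pass.

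Cox7a2l rose on day 15. It encodes a protein related to subunit 7a that helps join complexes III and IV into supercomplexes, and the C57BL/6J strain carries a shortened form of it. On chromosome 17 (83501918 to 83517330, minus strand), Cox7a2l stood at 179, 141 and 150 CPM in GFP cells and 104, 116 and 124 CPM in mCherry cells. The groups did not overlap and tumour 1 had the widest gap, with a log2 fold change of 0.44 (SE 0.108, adjusted p = 0.0183 by edgeR). The call held under all 10 alternatives, but without tumour 1 the value was 0.27 (adjusted p = 0.0237 by edgeR). On day 7 it stood at 140, 125 and 107 against 122, 111 and 120 CPM, with the groups overlapping (log2 fold change 0.06).

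Of the 23 genes called lower on day 7, 22 were tested on day 15, where 20 again had negative values and 6 were called: Ndufa4, Ndufa8, Ndufs3, Sdhd, Atp5g3 and Atp5c1. The 2 days share no library, but how often other genes called lower on day 7 were lower again is not given here. The repeat thus cannot be read as particular to subunit genes. Ndufs3, for example, stood at 94.5, 90.2 and 84.2 against 118, 122 and 106 CPM on day 7 and at 38.7, 44 and 39.2 against 53.5, 51 and 48.6 CPM on day 15. In the authors' deposited tables, 21 members were lower and 1 higher on day 7, and 7 were lower and 2 higher on day 15, where 2 members are absent. The shares of all genes called in those tables are not given here, so these counts have no background to be set against. The authors' day 15 table also holds a row that names no gene, with a baseMean of 22515851.

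The effect in GFP cells was tested for a difference between days (day 15 minus day 7). No subunit gene passed in either direction, with 0.211% of 16626 genes called, 0.102% higher and 0.108% lower. At an unadjusted p under 0.05 there were 9 of the 88 subunit genes, all positive, and 1703 of the 16626 genes. The count was thus near the share of all genes. The values leaned one way: 78 of 88 were positive, with a median of 0.13, beside −0.01 over all genes. Short genes outside the set also had higher medians on day 15 than on day 7. Other protein-coding genes under 600 nt had −0.22 on day 7 and 0.04 on day 15, and those of 600 to 1000 nt −0.19 and −0.02. The lean thus cannot be read as particular to subunit genes, and the part of transcript length in it was not tested. By complex the nuclear medians were 0.10, 0 and 0.18 in complexes I, II and III, 0.16 in complex IV and 0.18 in ATP synthase. The mitochondrial median was 0.21, over 12 genes that include low ones described below as uncertain. It thus cannot be ranked against the nuclear medians. Uqcrh came nearest. On day 15 it stood at 68.9, 65.2 and 67.7 CPM in GFP cells and 55.1, 58 and 61.1 CPM in mCherry cells, wholly above, where on day 7 it had been wholly below. The difference was 0.66 (SE 0.142, adjusted p = 0.0996 by edgeR). It passed with DESeq2 (adjusted p = 0.00897), with no filter on counts (0.00588 by edgeR) and without day 7 tumour 4 (0.0175 by edgeR). Ndufb11 differed by 0.45 (adjusted p = 0.209 by edgeR) and Atp5e by 0.41 (adjusted p = 0.248 by edgeR). The days were sequenced in separate runs, and day and run cannot be told apart in these differences.

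**Figure D4:**
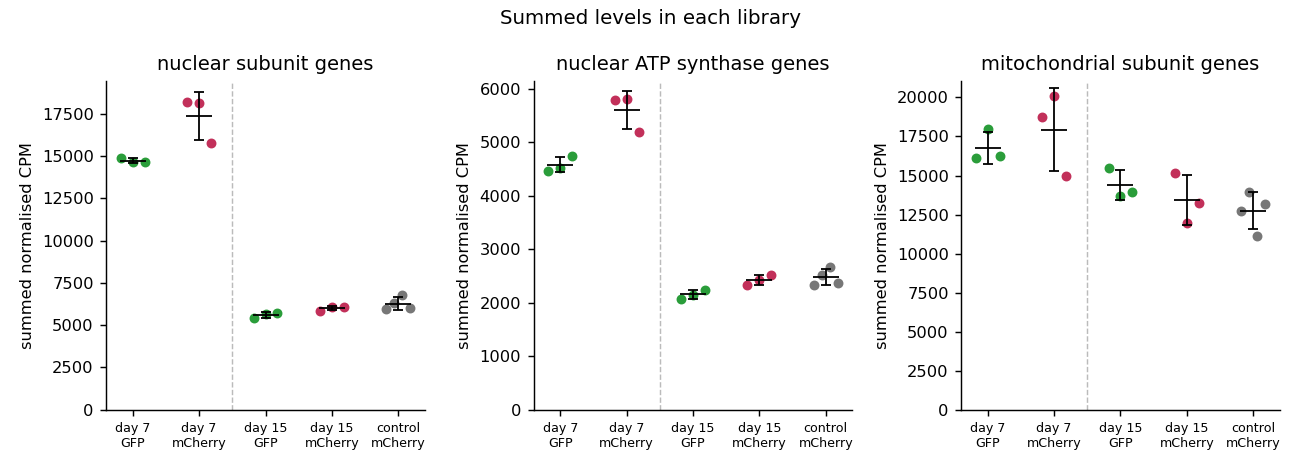
Summed CPM in each library (points, with mean and SD; vertical axes from 0) of the nuclear subunit genes, the nuclear ATP synthase genes and the mitochondrial subunit genes; the dashed line parts the sequencing runs. GFP libraries (green) lie below mCherry libraries (red) for both nuclear sums on each day, and the colours overlap for the mitochondrial sum.

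The mCherry cells of day 15 tumours were set against control mCherry tumours to ask whether untargeted neighbours differed from cells of tumours without attack. No subunit gene was called among 89 tested, nor was any of the 14800 genes (0% in each direction by edgeR, with 2104 at an unadjusted p under 0.05). DESeq2 called no subunit gene either, with 9 at an unadjusted p under 0.05, and called 128 of all genes higher and 91 lower. At an unadjusted p under 0.05 there were 8 subunit genes by edgeR, all lower, with a smallest adjusted p of 0.265. Among them, and chosen after their values were seen, were Ndufa1 and Ndufa11, accessory subunits of complex I, at −0.30 and −0.31. Ndufa11 stood at 17.9, 22.5 and 20.1 CPM in mCherry cells and 21.9, 25.8, 27.5 and 24.7 CPM in controls, and its groups overlapped. The groups lay apart with mCherry lower for 9 genes and higher for 1, where 6.47% and 7.91% of all genes did so. Medians were −0.10 over nuclear and 0.08 over mitochondrial genes.

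Surviving GFP cells of day 15 were set against the same controls, so the results below share libraries with those above. Of 89 subunit genes, 14 were lower (15.7%) and 2 higher, where 13.1% of all 14801 genes were called, 6.97% lower and 6.09% higher. The subunit genes had medians of −0.18 over nuclear and 0.11 over mitochondrial genes. The mitochondrial value was 0.03 with a filter of 50 counts and 0.02 to 0.17 when 1 library was left out, the lowest without control 1. The groups lay apart with GFP lower for 31 and higher for 4, where 15.3% and 14.6% of all genes did so. ATP synthase had 3 of 16 lower, complex I 4 of 37, complex II 1 of 4, complex III 2 of 8 and complex IV 4 of 12. Ndufa8 had −0.51 (adjusted p = 0.0158 by edgeR), with controls at 69.8, 79.6, 79.7 and 82.1 CPM against GFP libraries no higher than 60.4 CPM. Atp5g3 had −0.39 (adjusted p = 0.0203 by edgeR), with controls at 153, 167, 179 and 157 CPM, and Atp5c1 −0.30 (adjusted p = 0.0265 by edgeR), with controls at 161, 174, 175 and 172 CPM. For the same 3 genes, day 15 mCherry cells against controls gave −0.01, 0.02 and 0.04, none of which passed.

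Uqcrq, a small subunit of complex III, had −0.36 at 32.1, 29.9 and 33.1 against 39, 40.9, 44.9 and 38.4 CPM (adjusted p = 0.0279 by edgeR), and Uqcrc1 −0.36 (adjusted p = 0.0402 by edgeR). Ndufa4 at −0.55, Sdhd at −0.28, Cox6c at −0.32 and Cox6a1 at −0.40 were lower as well, with adjusted p from 0.036 to 0.0448 by edgeR. Cox7a2l was higher than in the controls, which stood at 119, 134, 118 and 116 CPM, by 0.36 (adjusted p = 0.0424 by edgeR). Most of these calls lay close to the threshold. Leaving out 1 library at a time left 0 to 13 genes lower and none higher: 0, 1 and 2 without GFP tumours 1, 2 and 3, and 10, 2, 2 and 13 without controls 1, 2, 3 and 4. Over all genes, 1031 were lower with every library. Without those GFP tumours 147, 276 and 510 were, and without those controls 881, 546, 470 and 1097. Of the marker lists, 10 of 14 macrophage markers and 8 of 10 markers of dividing cells were lower in GFP cells than in controls too, and their part in these results was not tested.

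Where a subunit has several forms, the ones found elsewhere were near 0. Per kilobase of annotated transcript in day 15 mCherry cells, Cox7a2 and Cox7a2l stood at 94.1 and 107 CPM and the muscle form Cox7a1 at 1.9 CPM. Cox7b stood at 65.7 and its testis relative Cox7b2 at 0.249 CPM per kilobase, and Ndufa4 at 84.1 and Ndufa4l2, which hypoxia induces, at 0.6 CPM per kilobase. Of the other sets, Cox4i1, Cox6a1, Cox6b1 and Cox8a were the forms with high levels, at 217, 200, 120 and 196 CPM per kilobase. None of Cox4i1, Cox6a1, Cox6b1 and Cox8a was called between GFP and mCherry cells on either day. Cox6a1 was lower in day 15 GFP cells than in controls, as given above. Cox7b missed the threshold narrowly on day 15 (−0.28, adjusted p = 0.0506 by edgeR). Ndufa4l2 stood at 0.13 to 0.293 CPM in day 15 GFP cells, 0.398 to 0.872 CPM in mCherry cells and 0 to 2.08 CPM in controls, too few counts for the day 15 test. In the same day 15 mCherry cells the highest level per kilobase among nuclear genes was that of Atp5b, at 309 CPM, whereas in day 7 mCherry cells it was that of Ndufb9, an accessory subunit of complex I, at 1010 CPM, with Atp5b at 590 CPM.

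No mitochondrial gene fell on either day, and 1 rose. mt-Co1, the catalytic subunit of cytochrome oxidase (chromosome M, 5328 to 6872, plus strand), was higher in GFP cells in all 6 tumours. On day 7 it stood at 6060, 6780 and 5200 CPM in GFP cells and 5120, 5720 and 3900 CPM in mCherry cells. The colours overlapped, and the log2 fold change of 0.30 did not pass (adjusted p = 0.0754 by edgeR; 0.0496 in the authors' deposited table). On day 15 it stood at 7420, 6780 and 6350 against 5500, 5090 and 5250 CPM, and rose by 0.37 (SE 0.106, adjusted p = 0.0357 by edgeR) with no overlap. Control libraries stood at 5310, 5510, 4080 and 5200 CPM, and the GFP cells lay 0.45 above them (adjusted p = 0.0439 by edgeR). Without tumour 2 or tumour 3, or in a joint fit with the controls, the within-tumour call was lost (adjusted p up to 0.162 over the alternatives). mt-Cytb, the cytochrome b of complex III, had −0.29 on day 7 at 4090, 4400 and 4770 against 5790, 6020 and 4500 CPM, and −0.16 on day 15. The complex I genes mt-Nd1, mt-Nd2, mt-Nd4, mt-Nd5 and mt-Nd6 had −0.34, −0.16, −0.30, −0.17 and −0.33 on day 7 and −0.11, −0.06, −0.18, −0.02 and −0.06 on day 15. None of them passed. mt-Co1 was thus the 1 mitochondrial gene with a positive value on day 7. Per kilobase, mt-Co1 stood at 3420, mt-Cytb at 2810 and mt-Nd1 at 1580 CPM in day 15 mCherry cells.

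The other mitochondrial genes cannot be counted with confidence, since chromosome 1 holds a near-identical nuclear copy of part of the mitochondrial genome. GENCODE places 7 unprocessed pseudogenes there, between 24611535 and 24616197 of GRCm38 on the minus strand. mt-Co2, mt-Atp6, mt-Co3 and mt-Nd4l align to theirs with 100% identity, and mt-Nd3 with 99.7% over 345 of its 348 bases. The first 300 bases of the mt-Nd3 pair are given because they show how little tells a read of one from a read of the other: the substitution is T3C, counted from 1 at the start of mt-Nd3, in capitals in both, and every other base is shared. These stretches lie at chrM:9459-9758 (plus strand) and chr1:24612820-24613119 (minus strand).
mt-Nd3: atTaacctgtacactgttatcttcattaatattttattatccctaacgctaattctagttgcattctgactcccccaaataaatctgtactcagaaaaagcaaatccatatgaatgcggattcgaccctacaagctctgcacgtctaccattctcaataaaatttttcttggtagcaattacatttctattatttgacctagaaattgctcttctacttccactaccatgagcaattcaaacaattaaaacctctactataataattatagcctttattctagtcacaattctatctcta
Gm28438: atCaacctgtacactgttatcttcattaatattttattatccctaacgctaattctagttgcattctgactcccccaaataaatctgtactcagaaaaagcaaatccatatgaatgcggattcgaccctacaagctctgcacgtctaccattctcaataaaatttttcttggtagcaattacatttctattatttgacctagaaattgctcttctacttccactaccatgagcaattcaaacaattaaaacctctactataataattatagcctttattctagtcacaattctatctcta
In run 2, mt-Co2, mt-Atp6, mt-Co3, mt-Nd3 and mt-Nd4l held 0.138 to 1.61 CPM and on day 7 from 1.5 to 193 CPM, while Gm28438, the copy of mt-Nd3, held 2.02 to 4.15 and 14.5 to 20.5 CPM. mt-Atp8, which has no annotated copy but overlaps mt-Atp6, held 0.173 to 0.663 CPM in run 2 and 16.5 to 24.5 CPM on day 7. For these 6 genes the levels are uncertain, and their day 7 log2 fold changes, −0.06 for mt-Co2, −0.08 for mt-Co3, −0.14 for mt-Atp6, −0.35 for mt-Atp8, −0.39 for mt-Nd3 and −0.36 for mt-Nd4l, did not pass. On day 15 mt-Co3 had 0.50, mt-Nd3 0.28, mt-Atp6 0.21 and mt-Co2 0.10, with errors of 0.39 to 0.431. The medians over mitochondrial genes given for each comparison include those of these 6 genes that were tested in it. Of the remaining mitochondrial genes, mt-Nd4 shares 60.8% of its 100-base windows with its copy and mt-Co1 26.3%, and the others none. Gm29216, the copy of part of mt-Co1, held 136 to 206 CPM on day 7 and 0.201 to 1.42 CPM in run 2. Gm28439, the copy of part of mt-Nd4, held 36.3 to 52.7 and 0.205 to 0.884 CPM. Counts from the shared stretches of mt-Nd4 and mt-Co1 are thus uncertain in the same way.

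Promoters of the nuclear genes were read because the members share factors known to act on them: NRF1, the ETS factor GABPA and YY1, which bind promoters of many respiratory genes. RefSeq (GRCm38.p6) promoters, from 250 bases before to 50 after each start, were found for 66 of 78 nuclear members. Both strands were searched for fixed letters. The NRF1 motif GCGCATGCG was in 12.1% of the subunit promoters and 1.95% of those of all 27025 genes, and the YY1 motif AAGATGGCG in 10.6% and 1.64%. The ETS motif CCGGAAGT was in 7.58% and 4.31%, the Sp1 motif GGGGCGGGG in 16.7% and 12.9%, CCAAT in 43.9% and 41.1%, and TATAAA in 9.09% and 15.7%. As counts among the 66, these were 8 for NRF1, 7 for YY1, 5 for ETS, 11 for Sp1, 29 for CCAAT and 6 for TATAAA. Of the 21 promoters of genes that fell on day 7, 3 held the NRF1 motif, 3 the ETS motif and 1 the YY1 motif. The Sp1 motif was in 3 of the 21, CCAAT in 13 and TATAAA in 2. The 250 bases before the start are shown for 3 of these genes, with the motif in capitals: the NRF1 motif, whose forward and reverse matches overlap, from 42 bases before the start of Atp5g2, and the ETS motif, on the reverse strand, from 39 bases before that of Atp5h and 11 before that of Uqcrh. They lie at chr15:102671048-102671297, chr11:115419920-115420169 and chr4:116075071-116075320, all on the minus strand.
Atp5g2 promoter: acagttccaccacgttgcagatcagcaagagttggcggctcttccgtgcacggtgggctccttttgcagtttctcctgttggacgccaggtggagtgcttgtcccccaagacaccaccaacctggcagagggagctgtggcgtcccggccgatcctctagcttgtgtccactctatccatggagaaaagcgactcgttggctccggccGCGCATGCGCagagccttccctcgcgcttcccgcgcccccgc
Atp5h promoter: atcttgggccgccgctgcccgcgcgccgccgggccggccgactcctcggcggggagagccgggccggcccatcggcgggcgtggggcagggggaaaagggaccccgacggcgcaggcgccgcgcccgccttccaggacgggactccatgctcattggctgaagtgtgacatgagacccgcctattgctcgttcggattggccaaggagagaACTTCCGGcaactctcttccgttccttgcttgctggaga
Uqcrh promoter: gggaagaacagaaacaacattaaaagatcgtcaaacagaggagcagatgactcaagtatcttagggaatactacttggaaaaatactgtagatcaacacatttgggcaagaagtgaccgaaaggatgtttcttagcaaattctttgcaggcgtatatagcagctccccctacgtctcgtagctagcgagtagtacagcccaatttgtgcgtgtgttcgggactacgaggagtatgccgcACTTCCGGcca

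Other genes of the pathway were read off from lists, whose shares of calls are set against the 9.33% lower and 8.89% higher of all genes on day 7 and the 10.6% and 8.94% on day 15. Among regulators of mitochondrial biogenesis, 2 of 10 rose on day 7 and none fell. Myc, a transcription factor that raises both growth and respiratory genes, stood at 144 ± 3.67 CPM (SD, n = 3) in the GFP libraries and 86.7 ± 7.7 CPM in the mCherry libraries, a rise of 0.73 on the log2 scale (adjusted p = 0.000853 by edgeR). Pprc1, a coactivator of the PGC-1 family, rose by 0.56 (adjusted p = 0.00441 by edgeR). Neither passed on day 15, when Gabpb2 had 0.23 and Myc 0.26. These rises stood beside the falls of subunit genes in the same libraries.

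Of the mitochondrial ribosomal proteins, which make the mitochondrially encoded subunits, 13 of 78 fell on day 7 (16.7%, median −0.16) and 7 of 78 on day 15 (8.97%, below the share of all genes; median −0.09), and none rose. Their transcript lengths are not given here. On day 7, 23.1% of protein-coding genes other than subunit genes were lower under 600 nt and 20.1% from 600 to 1000 nt. The part of length in the 13 falls was not tested. Mrpl33 and Mrpl18 fell by 0.48 and 0.50 on day 7, and Mrpl15 and Mrpl41 by 0.51 and 0.55 on day 15. Of 46 assembly factors, 4 fell on day 7 (8.7%, about the share of all genes), the complex II factor Sdhaf4 by 0.71 and the complex IV factors Cox14, Cox16 and Cox19 by 0.41, 0.51 and 0.41, and none was called between GFP and mCherry cells on day 15, when Coa7 had −0.36 and Tmem70 −0.28. The list medians were −0.01 and 0.02.

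Of 22 genes for electron carriers and coenzyme Q synthesis, none changed on day 7 (Coq3 −0.51 and Prodh 0.58, neither passing). On day 15, 3 fell (13.6%): Pdss1, which makes the tail of coenzyme Q, by 0.68, the cytochrome c1 gene Cyc1 by 0.33 and Gpd2 by 0.34. Of 18 tricarboxylic acid cycle and pyruvate dehydrogenase genes, 2 fell on each day (11.1%, close to the share of all genes). Fumarase, Fh1, fell on both, by 0.58 and 0.34, and Ogdh, of the 2-oxoglutarate dehydrogenase complex, fell by 0.35 on day 15. Of 16 genes of mitochondrial DNA upkeep and transcription, Tfb1m fell by 0.72 on day 7 and Polg2 rose by 0.56 on day 15, while Slirp on day 7 (−0.34) and Lrpprc on day 15 (−0.17) did not pass. Of 8 carriers, porins and the ATPase inhibitor, Atpif1, the inhibitor of ATP synthase running backwards, fell by 0.50 on day 7 and the phosphate carrier Slc25a3 rose by 0.29 on day 15, while Ucp2 had −0.21 on day 7. Of 5 hypoxia-linked genes, Bnip3l fell by 0.55 on day 7 and Higd1a rose by 0.48 on day 15, while Pdk1 on day 7 (−0.19) and Bnip3 on day 15 (0.43) did not pass. The smaller lists are too short for their shares to be read.

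Against controls, no gene of these lists passed in day 15 mCherry cells, where none of all 14800 genes tested did. The lists thus cannot be set apart from other genes in that comparison. In day 15 GFP cells 8 mitochondrial ribosomal genes were lower and 1 higher, with Mrpl27 at −0.46 and Mrpl33 at −0.33. Of the carriers and coenzyme Q genes, Coq8b at −0.42 and Cyc1 at −0.37 were lower and Coq10b at 0.79 higher. The assembly factor Ndufaf4, at 0.52, and the mitophagy receptor Bnip3, at 0.88, were higher, and Mdh2 of the tricarboxylic acid cycle, at −0.39, and the uncoupling protein gene Ucp2, at −0.38, lower. The genes named here had adjusted p from 0.0145 to 0.0419 by edgeR. Of all genes 6.97% were lower and 6.09% higher in that comparison.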

How the data were processed

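RNA was measured in 16 libraries (3 per colour and day, 4 controls). Per the labels' protocols, a sequencing company made the raw count matrices for the authors, with mm10 as the build named in the submitters' processing notes. It worked with an aligner, counter, strand setting and annotation not given in the sources used here. A further table for each day holds DESeq2 output of the authors: per the file headers, log2 fold changes, a Wald score, p-values and baseMean, a signal averaged over normalized counts. Values taken from them are named as theirs.

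Rows without a symbol (176 of 49315) held 0.00791% to 0.011% of counts and were left out. Genes were kept with filterByExpr (minimum count 10, minimum total 15), scaled by TMM and fitted together in edgeR (version 4.0.16, R 4.3.3) with its quasi-likelihood test, Benjamini-Hochberg adjustment and a threshold of 0.05. GFP and mCherry cells were compared with tumour as a block, and day 15 cells were compared with controls without one. The SE was taken as the size of the log2 fold change divided by the root of its F statistic, and CPM use TMM library sizes. Errors come from the spread between tumours, since counts of replicates differed beyond counting error; nothing in the labels says more on how separate the tumours are. The paired libraries come from one tumour, by the labels on day 15 and by column number on day 7, where labels and columns are numbered differently. Residual correlations of same-numbered libraries were 0.11, 0.147 and 0.162 on day 7 and 0.0899, 0.161 and 0.231 on day 15, against at most 0.0188 for other pairs.

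The genes named are, in each complex and comparison, the 2 called genes of smallest p in each direction, core subunits, sets of isoforms, the mitochondrial genes and the 2 genes of smallest p in each pathway list; others are named to complete a count, and some genes of these sets are not reported here. Genes and lists were chosen with earlier results of these data known. Positions and lengths are those of GENCODE M21 (GRCm38). Alternatives were DESeq2 1.42.0, its size factors, library sizes without mitochondrial genes, a filter of 50 counts or none, leaving out the block, a joint fit of day 15 and control libraries, and omission of each tumour or library. In counts simulated for day 7 (14578 genes, 100 changed by each fold), edgeR called 3 of 100 genes changed 1.3-fold and 79 of 100 changed 2-fold. For day 15 (14260 genes) it called 28 and 93. In all, 85 and 135 genes were called in the simulated counts, against 2656 and 2782 in the data. The same adjusted threshold thus asked for a smaller unadjusted p in the simulated counts.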

Additional observations from a re-analysis of the deposited data

Results flagged for a closer look

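In 4 of the 88 subunit genes tested for a difference between days, the day 7 and day 15 tumours moved in opposite directions. Every tumour of one day went one way and every tumour of the other day the other way. The share of all genes with this pattern is not given here, so 4 cannot be called more than a background share. Uqcrh, the hinge protein of complex III, had −0.58, −0.54 and −0.22 (log2, GFP over mCherry) in day 7 tumours and 0.32, 0.17 and 0.15 in day 15 tumours, a difference of 0.66 (adjusted p = 0.0996 by edgeR). Cox7c, a small cytochrome oxidase subunit, had −0.18, −0.15 and −0.26 and then 0.28, 0.14 and 0.10, a difference of 0.37 (adjusted p = 0.318 by edgeR). Ndufa6, an accessory subunit of complex I, had −0.22, −0.16 and −0.33 and then 0.17, 0.05 and 0.33, a difference of 0.41 (adjusted p = 0.291 by edgeR). Ndufb5, of the membrane arm of complex I, had −0.10, a value below 0 that rounds to 0, and −0.01 and then 0.26, 0.20 and 0.18, a difference of 0.24 (adjusted p = 0.54 by edgeR).

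In 8 of 99 genes or sums looked at (8.08%, where chance gives about 1 in 20), 1 of the 4 control libraries stood apart from the others, by the share of the group's range that separates it from its neighbour. Control 3 was highest for Uqcr10 (0.924), Cox5a (0.898), Cox5b (0.840) and Cox6b1 (0.834). Control 1 was highest for Cox7b2 (0.881) and control 2 for Cox7a2l (0.833), while control 2 was lowest for Ndufc2 (0.890) and control 4 for Ndufa1 (0.879).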

How the results depend on the processing

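No called gene changed direction, but the day 15 mitochondrial median (−0.02) was above 0 with no filter (0.05), in the joint fit (0.01) and without tumour 1 (0.03). Without a block, 22 genes were lower on day 7 and 9 lower and 2 higher on day 15, and pairing moved no other count by over 1.5 times. Leaving out 1 tumour gave 1 to 52 lower and 0 to 1 higher on day 7 (mt-Co1 without tumour 4), with medians of −0.29 to −0.18 (nuclear) and −0.23 to −0.16 (mitochondrial), and 3 to 9 lower and 1 to 2 higher on day 15, with −0.13 to −0.06 and −0.07 to 0.03. Against controls, leaving out 1 library gave 0 to 13 lower and 0 higher for GFP cells (−0.21 to −0.15 and 0.02 to 0.17) and none for mCherry cells (−0.14 to −0.05 and 0.01 to 0.15). For GFP cells, the number of all genes called lower also moved with the tumour or library left out, as given above. The difference between days had 0 to 1 higher (Uqcrh without day 7 tumour 4), with 0.07 to 0.23 and 0.14 to 0.3. With no filter, 1 gene was higher on day 7 (mt-Co1); with a filter of 50 counts, which drops low mitochondrial genes, their day 7 median was −0.24. The joint fit left 1 gene higher on day 15 (Cox7a2l), and Uqcrh was the 1 gene that differed between days with DESeq2 and with no filter. The cause of these moves was not tested. Of alternatives for single genes, 960 kept their side of the threshold, 154 lost the call and 30 gained it. In counts simulated for day 7 a 1.3-fold change was rarely called, but far fewer genes were called there than in the data. The simulated share is thus not the sensitivity of the day 7 test.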
